A study of Mus musculus with 12 samples.

Results

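The genes described are 10 mouse members of the PYHIN family, namely Aim2, Ifi203, Ifi204, Ifi205, Ifi207, Ifi209, Ifi211, Ifi213, Ifi214 and Mndal, found by symbol among the 54446 genes of a count table from bone marrow-derived macrophages. They were chosen by name with earlier measured differences between these same libraries known, so their levels and folds are given as descriptions, without p-values. RNA was sequenced from 12 libraries in 4 labelled groups of 3. The knockout (KO) is LysM-Cre+ NLRC3fl/fl, in which Cre driven by the LysM promoter removes the loxP-flanked Nlrc3 from cells of the myeloid lineage. The wild type (WT) is LysM-Cre- NLRC3fl/fl, so both carry the floxed alleles. NLRC3 is a cytoplasmic NOD-like receptor known as a brake on innate signalling. Cells of each genotype received lipopolysaccharide (LPS), a bacterial ligand of Toll-like receptor signalling, for 12 h or stayed in RPMI 1640 medium. The labels give neither the age of the mice nor whether replicates came from separate animals.

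Nlrc3 itself went against one label. It had 15.6, 8.29 and 6.04 counts per 1000000 (CPM) in the libraries with the label KO LPS and 0.996, 0.850 and 0.876 CPM in those labelled KO medium. WT libraries had 0.796, 4.39 and 1.40 CPM with LPS and 9.89, 13.6 and 10.4 CPM in medium. All 3 libraries labelled KO LPS thus held more Nlrc3 than any WT LPS library. The cytokine gene Il6 had 1.07, 1.31 and 0.689 CPM where the label is KO LPS and 108, 105 and 237 CPM in those labelled KO medium, against 245, 12.3 and 214 CPM in WT LPS and 0.307, 2.37 and 2.44 CPM in WT medium. WT LPS library 2 thus stood apart from its partners in both genes, and without it the median log2 fold of the 10 PYHIN genes was 3.43 for WT LPS over WT medium and -3.78 for labelled KO over WT with LPS, against 3.30 and -3.69 with it. The groups are kept as labelled. Whether the LPS and medium labels of the KO libraries were exchanged was not tested. An exchange would turn the sign of LPS over medium within the labelled KO, and would make labelled KO medium with WT LPS, and labelled KO LPS with WT medium, the pairs of like treatment. For Nlrc3 the log2 fold was -0.12 ± 0.50 for labelled KO LPS over WT medium and -0.94 ± 0.55 for labelled KO medium over WT LPS. Neither was called by edgeR, so no called loss of Nlrc3 was seen in these pairs either. Which exons the loxP sites flank is not given in the sources used here.

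Library totals ran from 13082947 to 20960505 counts, so that 3 counts, the detection floor used here, stood for 0.143 to 0.229 CPM. All 9 macrophage markers examined were above 1 CPM in every library, with sums of 22010.5 to 35414 CPM in the libraries labelled KO LPS, 10432 to 13299 CPM in those labelled KO medium, 13268 to 19574 CPM in WT LPS and 33042 to 36566 CPM in WT medium. The sum was lower in WT LPS than in WT medium, and lower in the libraries labelled KO medium than in those labelled KO LPS. The 10 neutrophil markers summed to 1103 to 6898, 1091 to 3106, 956 to 4376 and 829 to 1228 CPM in the same order of groups, and none was at 0 throughout a group. The 8 B cell markers summed to 13.3 to 89.7 CPM where the label is KO LPS and to at most 13.3 CPM in any other library. Vpreb3 of these was at 0 in all libraries labelled KO medium, and the dendritic cell marker Xcr1 in all of WT medium. The 7 T and NK cell markers reached at most 14.1 CPM, the 6 dendritic cell markers 36.3 CPM and the 6 stromal markers 263 CPM. The part of these cells in the results was not tested, and in bulk RNA fewer cells of a type and less RNA per cell cannot be told apart.

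PYHIN proteins combine a pyrin domain, which binds other pyrin domains, with one or more HIN domains, which bind double-stranded DNA. AIM2 recognises DNA in the cytosol, recruits the adaptor ASC and activates caspase-1 in an inflammasome, a complex that matures interleukins and triggers pyroptosis. Most mouse relatives of AIM2 are interferon-inducible nuclear or cytosolic proteins, and several have been linked to STING signalling and to transcription of inflammatory genes in macrophages. LPS induces interferon-beta in macrophages, and the interferon then induces such genes through STAT and IRF factors.

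The 10 genes lie side by side on chromosome 1 (GRCm38, GENCODE M21). Aim2 is at chr1:173350879-173466040 on the plus strand, Ifi214 at chr1:173519717-173535957 and Ifi213 at chr1:173566283-173599274 on the minus strand, and Ifi209 at chr1:173630917-173647928 on the plus strand. The other 6 are on the minus strand, Ifi207 at chr1:173723427-173741747, Ifi204 at chr1:173747293-173766943, Mndal at chr1:173849126-173942491, Ifi211 at chr1:173896345-173913046, Ifi203 at chr1:173920407-173942672 and Ifi205 at chr1:174011998-174031810. The annotated span of Mndal covers that of Ifi211 and nearly all of Ifi203, and its exons share 37 bases with those of Ifi203 on the same strand. Ifi206, Ifi208, Ifi202b and the pseudogene Ifi203-ps of the same family lie between them and are not among the 10.

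**Figure D1:**
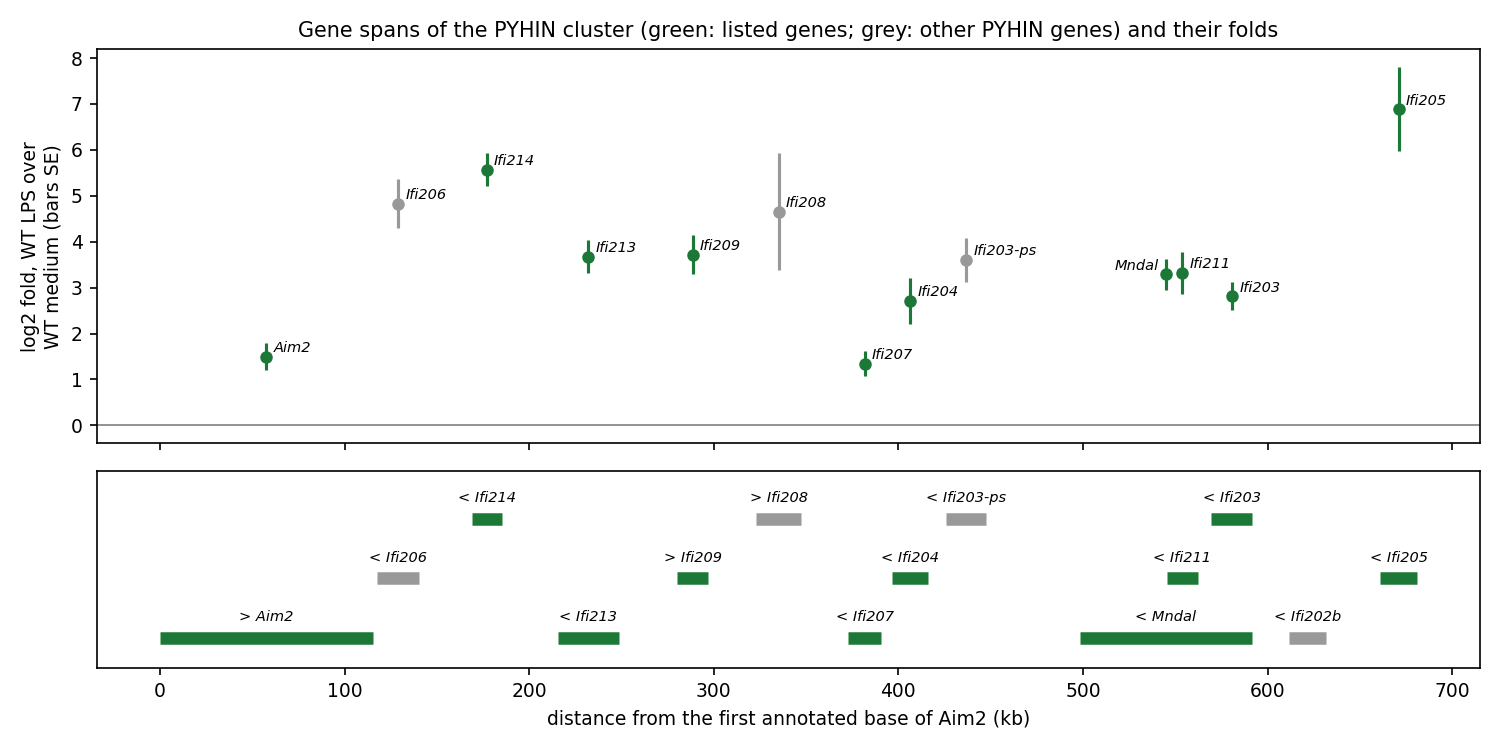
Upper panel, fitted log2 fold of WT LPS over WT medium with its SE for each PYHIN gene that was tested, at the middle of the gene on the x axis. Lower panel, annotated gene spans by distance in kb from the first annotated base of Aim2, where > marks the plus and < the minus strand, green the 10 genes described and grey the other PYHIN genes. Ifi205 at one end had the fold of 6.88 and Aim2 at the other end 1.50, with Ifi214 at 5.57 between them.

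Promoter sequences were examined because the genes moved together. RefSeq promoters of the same build (GRCm38.p6), 250 bases before to 50 after each start, were found for 9 of the 10 genes, all except Ifi204. They were searched on both strands for a core resembling the interferon-stimulated response element, GAAA, any 2 bases, GAAA. It was present in 7 of 9 genes, Ifi203, Ifi205, Ifi207, Ifi211, Ifi213, Ifi214 and Mndal, and in 3.99% of all 27025 genes of the promoter table (3.44% of 32851 promoters). In 5 of the 7 the letters were identical, GAAATCGAAA, an exact form that was singled out after the promoters were seen. That exact form occurred in 16 of the 32851 promoters, 7 of them PYHIN promoters, those of the 5 genes and of Ifi206 and Ifi208. The other 9 included Ddx58 (the RNA sensor RIG-I), Ripk1 and Parp11. These 30-base windows on the gene's own strand carry the core in capitals, and are shown because most of them also share letters around it. The genes with the core are therefore not independent counts to set beside the share of all genes.
Ifi214: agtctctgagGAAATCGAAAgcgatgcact
Ifi213: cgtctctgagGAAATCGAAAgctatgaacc
Ifi206: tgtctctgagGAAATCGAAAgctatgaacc
Ifi208: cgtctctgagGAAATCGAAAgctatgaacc
Ifi207: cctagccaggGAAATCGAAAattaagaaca
Mndal: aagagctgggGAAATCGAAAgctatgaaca
Ifi203: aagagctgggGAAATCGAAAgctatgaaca
Ifi211: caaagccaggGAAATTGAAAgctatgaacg
Ifi205: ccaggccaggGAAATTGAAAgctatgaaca

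The windows are at chr1:173536017-173536046 for Ifi214, chr1:173599326-173599355 for Ifi213, chr1:173491339-173491368 for Ifi206, chr1:173673597-173673626 for Ifi208 and chr1:173741831-173741860 for Ifi207. Those of Mndal, Ifi203, Ifi211 and Ifi205 are at chr1:173880204-173880233, chr1:173942508-173942537, chr1:173913064-173913093 and chr1:174031870-174031899. The windows of Ifi213 and Ifi208 are the same in all 30 bases, as are those of Mndal and Ifi203. The core begins 79 bases before the start in Ifi214, 73 in Ifi213, 41 in Ifi207, 37 in Ifi211, 36 in Mndal, 35 in Ifi203 and 134 in Ifi205. Ifi205 held a further match after its start and Mndal one in the promoter of another start, and Ifi203 had none in the promoter of its other start. The RefSeq starts of Ifi207, Ifi209, Ifi206 and Ifi208 lie outside the GENCODE transcripts of those genes. Those of Aim2 and Mndal lie well inside the annotated gene spans, and the bases before the first annotated base of Aim2 were not searched. Aim2 and Ifi209 held no full match in their promoters, which says nothing of the factors that act on them. Ifi209 held taaatcgaaa, which differs from the exact form in its first base only. A GAS-like pattern, TTCNNNGAA, was in 0 of 9 genes, against 9.55% of all genes. A kappaB-like pattern, GGG, any 5 bases, CC, was in 4 of 9 genes (Ifi203, Ifi209, Ifi214 and Mndal), against 53.5% of all genes. A match is a description of letters and not a bound site.

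The 250 bases before the RefSeq start of Ifi214, with the core in capitals, and of Aim2, without one, are shown because these genes had a high and a low fold among the 10. They lie at chr1:173535958-173536207, minus strand, and chr1:173420354-173420603, plus strand. Ifi207, with the exact core, had the smallest log2 fold of the 10 (1.35), and Ifi209, without a full match, had 3.72. Whether the core bears on the size of the fold was not tested.
Ifi214: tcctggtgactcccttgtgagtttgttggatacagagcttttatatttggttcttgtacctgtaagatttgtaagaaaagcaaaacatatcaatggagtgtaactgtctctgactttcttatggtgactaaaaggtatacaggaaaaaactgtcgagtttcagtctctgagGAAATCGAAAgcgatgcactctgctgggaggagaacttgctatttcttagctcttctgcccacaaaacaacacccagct
Aim2: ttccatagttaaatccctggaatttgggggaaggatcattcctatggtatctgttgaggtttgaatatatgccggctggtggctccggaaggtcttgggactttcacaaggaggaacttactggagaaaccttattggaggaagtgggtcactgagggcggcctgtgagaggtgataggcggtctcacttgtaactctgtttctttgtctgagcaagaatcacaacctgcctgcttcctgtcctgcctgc

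Aim2, the DNA sensor of the inflammasome, was moderately expressed in every library. Aim2 measured 35.4, 30.3 and 21.6 CPM in libraries 1 to 3 labelled KO LPS, and 100.3, 75.0 and 132 CPM in those labelled KO medium. In WT libraries Aim2 had 110.1, 82.9 and 82.0 CPM with LPS and 59.7, 39.4 and 51.8 CPM in medium. Its levels in the libraries labelled KO medium overlapped those in WT LPS, and both groups lay above all WT medium libraries. The fitted log2 fold of WT LPS over WT medium was 1.50 ± 0.29 (SE). Folds here come from edgeR with trimmed-mean (TMM) scaling, whose factors were 1.20 to 1.24 in the libraries labelled KO LPS, 0.702 to 0.791 in those labelled KO medium, 0.765 to 1.02 in WT LPS and 1.10 to 1.46 in WT medium. They therefore differ from ratios of CPM, which for Aim2 was 1.82 between WT LPS and WT medium, where the fitted fold was 2.82.

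Ifi214 was the scarcest of the 10. Ifi214 measured 0.820, 0.655 and 0.477 CPM in libraries 1 to 3 labelled KO LPS, and 41.1, 26.3 and 51.0 CPM in those labelled KO medium. In WT libraries Ifi214 had 35.4, 43.8 and 52.2 CPM with LPS and 1.43, 0.917 and 1.89 CPM in medium. The low values rest on 13, 12 and 9 counts in the libraries labelled KO LPS and 28, 12 and 31 counts in WT medium, all above the floor of 3 counts. With LPS the WT mean was 43.8 ± 8.37 CPM, against 1.41 ± 0.486 CPM in WT medium (SD, n = 3 each), a fitted log2 fold of 5.57 ± 0.36. Ifi214 shares sequence with Ifi209, as given below.

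Ifi204 has been reported in mouse to sense DNA upstream of STING, and had the highest count of the 10 in all 6 libraries labelled KO medium or WT LPS. Ifi204 measured 506, 149 and 156 CPM in libraries 1 to 3 labelled KO LPS, and 1560.2, 1491 and 2256 CPM in those labelled KO medium. In WT libraries Ifi204 had 1743, 1657 and 2105 CPM with LPS and 396, 518 and 331 CPM in medium. The first library labelled KO LPS stood above the other 2 of its group and within the WT medium range. The fitted log2 fold of WT LPS over WT medium was 2.71 ± 0.50.

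Ifi205, reported in mouse macrophages to control expression of the ASC gene Pycard, had the widest swing. Ifi205 measured 22.6, 4.86 and 4.08 CPM in libraries 1 to 3 labelled KO LPS, and 1482, 1191 and 2169 CPM in those labelled KO medium. In WT libraries Ifi205 had 1172, 1241 and 2095 CPM with LPS and 10.1, 34.6 and 9.14 CPM in medium. No library of the low groups came near the high ones, the closest being 34.6 CPM in WT medium and 1172 CPM in WT LPS. The fitted log2 fold of WT LPS over WT medium was 6.88 ± 0.92, with the largest SE of the 10, and WT medium library 2 at 34.6 CPM stood above its 2 partners.

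Ifi207, reported to regulate cytokine transcription in mouse macrophages, moved least. Ifi207 measured 255, 223 and 274 CPM in libraries 1 to 3 labelled KO LPS, and 422, 374 and 722 CPM in those labelled KO medium. In WT libraries Ifi207 had 472, 894 and 546 CPM with LPS and 421, 287 and 409 CPM in medium. In CPM without TMM scaling, libraries labelled KO medium overlapped those of WT medium, and the WT LPS libraries lay above all WT medium libraries. The fitted log2 fold of WT LPS over WT medium was 1.35 ± 0.27. Scaling by library size alone lowered it to 0.78 and ended its call, and did the same for labelled KO medium over WT medium (0.44, against 1.26 ± 0.27 with TMM).

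Ifi203, reported in mouse to take part in sensing retroviral DNA, averaged 72.8 ± 16.5 CPM in the libraries labelled KO LPS, 668 ± 211 CPM in those labelled KO medium, 637 ± 58.1 CPM in WT LPS and 139.7 ± 49.0 CPM in WT medium (SD, n = 3 each). Mndal, reported in mouse to slow cell growth, averaged 114 ± 35.7, 1060.2 ± 381, 1055 ± 64.6 and 165 ± 17.0 CPM in the same groups. For both genes the libraries of the first and last of these groups all lay below those of the other pair of groups. Ifi209 averaged 85.6 ± 46.5 CPM in the libraries labelled KO LPS, 1428 ± 511 CPM in those labelled KO medium, 1516 ± 166 CPM in WT LPS and 177 ± 48.9 CPM in WT medium. Ifi211 averaged 110.3 ± 57.6, 794 ± 222, 926 ± 136 and 136 ± 39.4 CPM, and Ifi213 36.5 ± 5.49, 414 ± 136, 513 ± 157 and 61.3 ± 28.3 CPM, in the same order of groups. The pattern of low, high, high and low means was shared by all 10 genes.

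**Figure D2:**
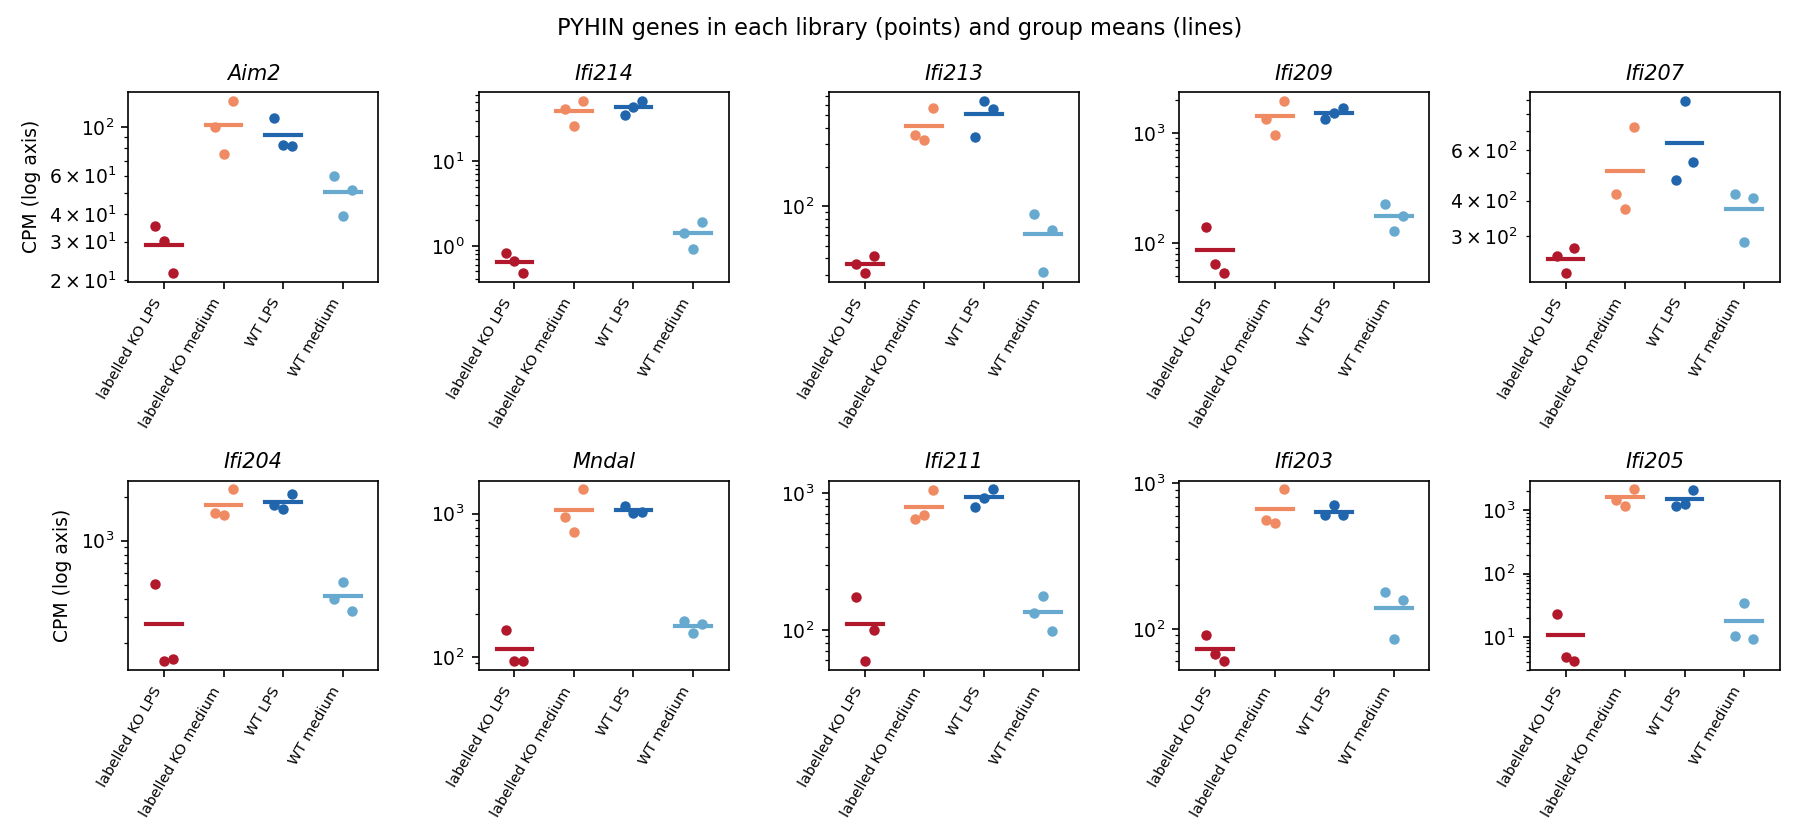
CPM on log axes, with a scale of its own for each gene, for the 10 PYHIN genes in each library (points, in replicate order from left to right) with group means (lines). The libraries labelled KO LPS are lowest on average for every gene, at 0.651 ± 0.172 CPM for Ifi214, and the libraries labelled KO medium overlap those of WT LPS. For Ifi207 the libraries labelled KO medium (422, 374 and 722 CPM) also overlap those of WT medium (421, 287 and 409 CPM).

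The first comparison asks how LPS changed these genes in WT cells. All 10 were called higher in WT LPS than in WT medium at an adjusted p under 0.05, where 11.9% of the 13773 genes tested were called higher, and all 10 had no overlap between the groups, where 9.87% of genes tested were higher without overlap. All 10 also passed the filter on low counts. Since the genes were chosen with these differences known, nothing is read from the counts. The median log2 fold of the 10 was 3.30, against -0.06 over all genes tested. Ifi205 (6.88 ± 0.92) and Ifi214 (5.57 ± 0.36) led, followed by Ifi209 (3.72 ± 0.43), Ifi213 (3.67 ± 0.36), Ifi211 (3.32 ± 0.45) and Mndal (3.29 ± 0.34). Ifi203 (2.81 ± 0.31), Ifi204 (2.71 ± 0.50), Aim2 (1.50 ± 0.29) and Ifi207 (1.35 ± 0.27) had the smaller folds.

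With LPS, labelled KO libraries were lower than WT ones for all 10 genes, against a background of 13.7% of genes called lower and 10.9% lower without overlap, as all 10 were. The median log2 fold was -3.69, against 0.06 over all genes, from -7.68 ± 0.95 for Ifi205 and -6.58 ± 0.38 for Ifi214 to -2.19 ± 0.30 for Aim2 and -1.82 ± 0.28 for Ifi207. In medium, labelled KO libraries were higher than WT ones, with a median of 3.40 against -0.02 over all genes, where 14% of genes were called higher. Of the 10, 9 had no overlap in medium (10.2% of genes tested were higher without overlap), the exception being Ifi207. Overlap was judged in CPM without TMM scaling, unlike the folds, and was not examined after that scaling. Ifi205 had 7.18 ± 0.93, Ifi214 5.63 ± 0.36, Aim2 1.85 ± 0.30 and Ifi207 1.26 ± 0.27 in this comparison. These comparisons share WT libraries with the first one, and the groups were known to differ when the genes were chosen.

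Within the labelled KO, LPS libraries were lower than medium libraries for all 10 genes, where 15.3% of genes tested were called lower and 10.9% were lower without overlap. The median log2 fold was -3.93, against 0.04 over all genes. Ifi205 had -7.98 ± 0.96, Ifi214 -6.64 ± 0.38, Ifi209 -4.78 ± 0.45, Aim2 -2.54 ± 0.31 and Ifi207 -1.73 ± 0.28. The LPS effect thus pointed opposite ways in the labelled genotypes. The difference of the LPS effects, labelled KO minus WT, had a median of -7.06 against 0.11 over all genes, and all 10 genes were called, with 20.6% of genes tested called in that direction.

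**Figure D3:**
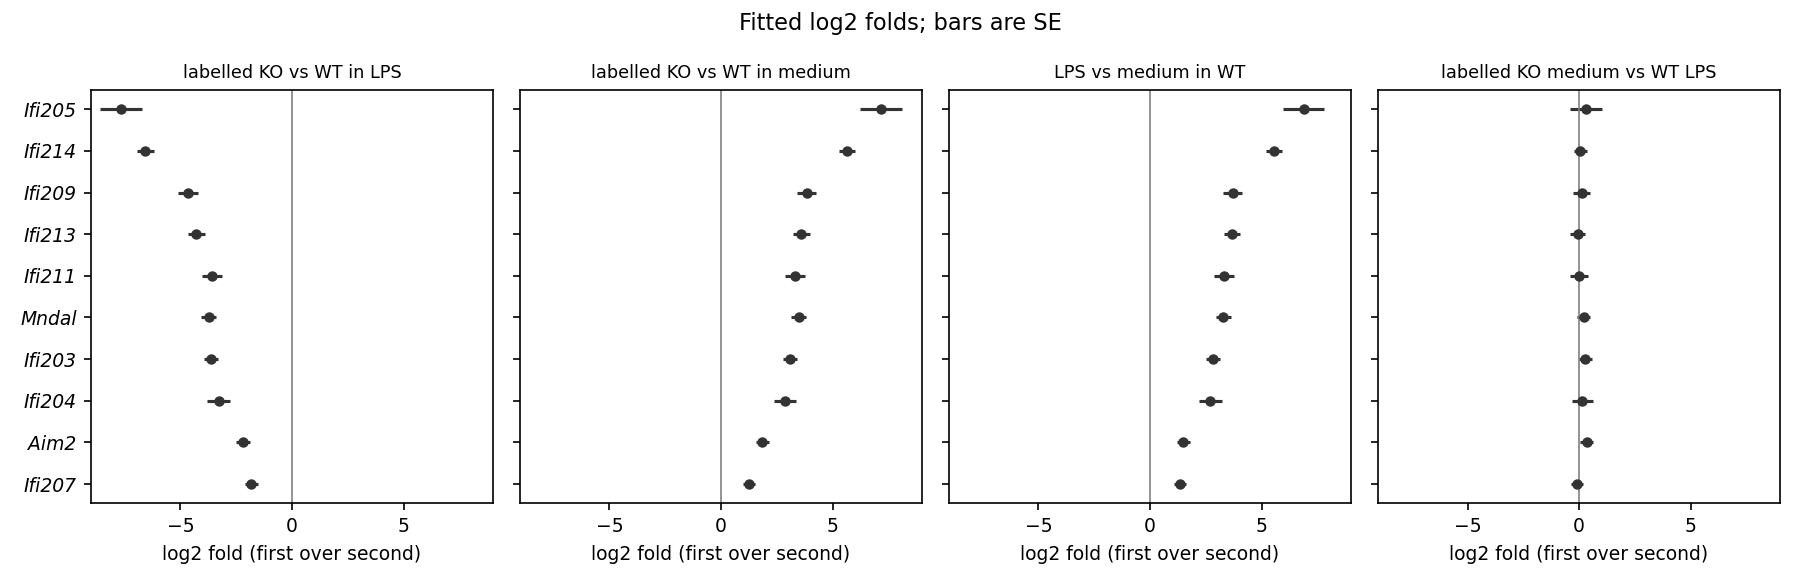
Fitted log2 folds with SE bars for the 10 PYHIN genes in 4 comparisons, the first-named group over the second. Ifi205 and Ifi214 lie farthest from 0 in the first 3 panels, at -7.68 and -6.58 for labelled KO over WT with LPS, and all 10 lie between -0.08 and 0.35 for labelled KO medium over WT LPS.

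A comparison proposed with earlier results known set the libraries labelled KO medium against WT LPS. Folds ran from -0.08 for Ifi207 to 0.35, the libraries of the groups overlapped for all 10 genes, and edgeR called 0 of 10 and 0 of the 13773 genes (0%). Without adjustment 270 genes had a p under 0.05, DESeq2 also called 0, and 7.61% of genes had no overlap in either direction. A p that misses the threshold does not show that the groups were alike. For Ifi214 the fold was 0.06 ± 0.29, for Ifi205 0.30 ± 0.71 and for Aim2 0.35 ± 0.29. Libraries labelled KO LPS against WT medium gave negative folds for all 10 genes, from -1.01 to -0.26 with a median of -0.66, against 0.04 over all genes. None of the 10 was called, as was none of all genes (0%) by edgeR, which left 1135 genes at an unadjusted p under 0.05, while DESeq2 called 41 genes. Without the first library labelled KO LPS, edgeR called 140 genes higher and 105 lower in that comparison, and still 0 of the 10. Ifi207, Ifi214 and Aim2 were lower without overlap, 3 of 10, where 4.31% of genes tested were. Aim2 had 29.1 ± 6.99 CPM where the label is KO LPS and 50.3 ± 10.2 CPM in WT medium, and Ifi214 had 0.651 ± 0.172 and 1.41 ± 0.486 CPM (SD, n = 3 each).

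Together the 10 genes took 0.0980% ± 0.0378 of all counts in the libraries labelled KO LPS, 0.840% ± 0.259 in those labelled KO medium, 0.876% ± 0.103 in WT LPS and 0.154% ± 0.0135 in WT medium (SD, n = 3 each). The makeup of this share was not the same in all groups. Ifi205 made up 0.926% ± 0.588 of the 10 genes' counts in the libraries labelled KO LPS, 19.2% ± 0.651 in those labelled KO medium, 16.9% ± 3.89 in WT LPS and 1.21% ± 1.03 in WT medium. Ifi207 made up 27.7% ± 8.49, 5.96% ± 0.372, 7.31% ± 2.57 and 24.2% ± 4.05 in these groups, the opposite pattern. Ifi204 held 25.3% ± 9.12, 21.4% ± 1.71, 21.0% ± 1.79 and 27.3% ± 7.45.

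**Figure D4:**
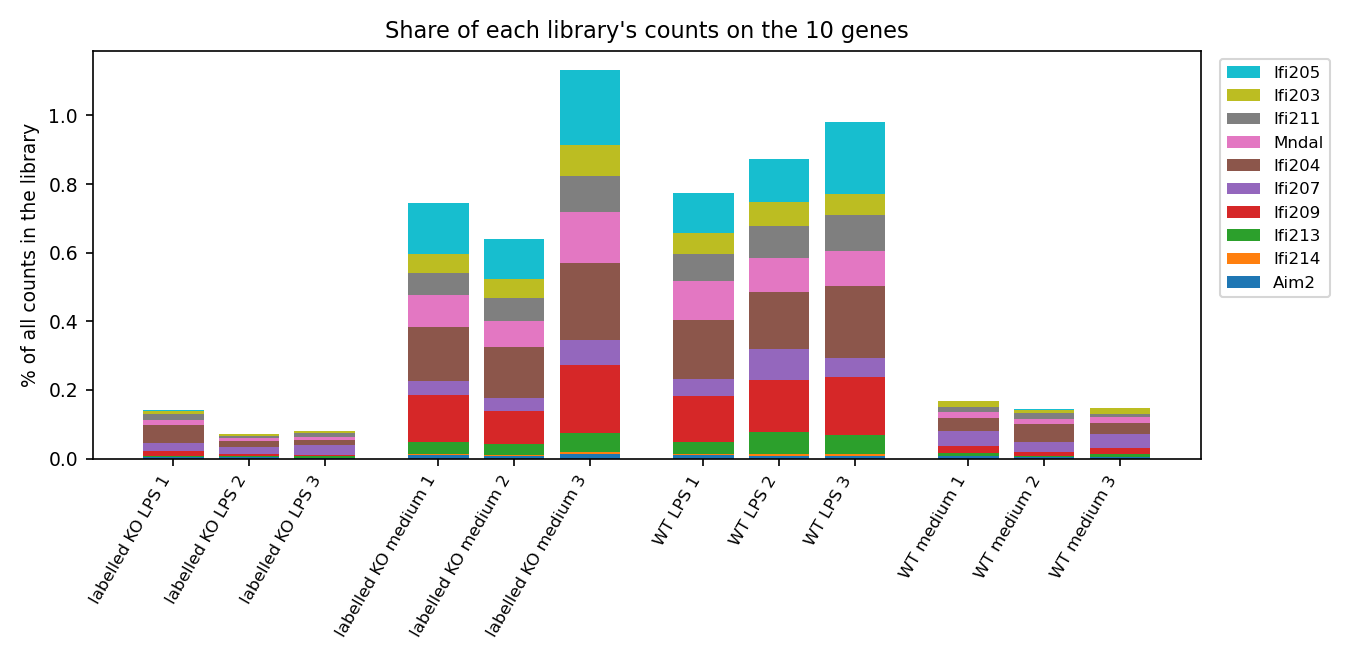
Share of each library's counts, in percent, that fell on the 10 PYHIN genes, stacked by gene, 1 bar per library. The libraries labelled KO medium hold 0.641% to 1.13% and those of WT LPS 0.775% to 0.980%, above all other libraries, of which the highest holds 0.169%.

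Levels between genes were compared per length, in the authors' FPKM (fragments per kilobase of gene and per 1000000 fragments). In WT LPS, Ifi211 (519 ± 76.1) and Ifi204 (515 ± 66.8) were highest and did not differ beyond their spread, followed by Ifi209 (427 ± 46.7), Ifi205 (359.8 ± 123) and Mndal (291 ± 17.8) (SD, n = 3 each). The library ranges of each neighbouring pair among these 5 overlapped. Ifi207 (186 ± 65.9), Ifi203 (94.9 ± 8.67), Ifi213 (75.0 ± 22.9), Aim2 (26.2 ± 4.56) and Ifi214 (5.40 ± 1.03) followed, and of these only Ifi203 and Ifi213 overlapped as neighbours. In WT medium the order began with Ifi204 (117 ± 26.7) and Ifi207 (109 ± 21.8) and ended with Ifi213 (8.96 ± 4.14), Ifi205 (4.30 ± 3.46) and Ifi214 (0.174 ± 0.0599). Ifi205 thus ranked 4 of 10 per length in WT LPS and 9 of 10 in WT medium. The order in the libraries labelled KO medium began with Ifi204 (497 ± 119) and Ifi211 (445 ± 124), and that in the libraries labelled KO LPS with Ifi204 (75.9 ± 57.3) and Ifi207 (73.3 ± 7.45).

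Some of these genes are so alike that short reads could be assigned to the wrong one. Of the 100-base windows of their annotated transcripts, 56.9% of Ifi211 windows occurred in another gene, 37.2% in Ifi205 and 19.6% in Ifi204. For Ifi209 the share was 16.9%, all with Ifi214, for Ifi205 15.04%, for Ifi204 10.7% and for Ifi214 7.29%, all with Ifi209. Mndal (6.38%), Ifi213 (3.30%), Ifi203 (2.84%) and Ifi207 (0.790%) shared less, and Aim2 shared 0. How reads with several matches were counted is not given in the sources used here, so levels of genes with a large shared part are uncertain, Ifi211 first among them. In all, 8 rather than 4 genes shared at least 10% at 50 bases. With 1516 ± 166 CPM for Ifi209 and 43.8 ± 8.37 CPM for Ifi214 in WT LPS, the part of misassigned reads in the level of Ifi214 was not tested.

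Libraries of 1 group also varied together. The third library labelled KO medium was highest of its group for all 10 genes and the second lowest for 9, with and without TMM scaling. In the libraries labelled KO LPS the first was highest for 8 of 10, with Ifi207 and Ifi213 as the exceptions. WT medium library 2 was the highest of its group for Ifi204, Ifi205 and Ifi211 and the lowest for the other 7 in CPM. WT LPS library 2, whose Il6 was 12.3 CPM against 245 and 214 CPM in its partners, was highest for Ifi203, Ifi207 and Ifi213 in CPM. After TMM scaling the same library was lowest for 8 and highest for Ifi207 alone. Deviations from the group means of log2 CPM correlated most closely for Ifi204 with Ifi205 (r = 0.91), Ifi209 with Mndal (0.90), Ifi204 with Ifi211 (0.89) and Ifi207 with Ifi213 (0.85), and least for Ifi205 with Ifi213 (-0.26). These r values describe 12 libraries. Genes of the same library share its depth and scaling, whose part in r was not tested. Ifi204 and Ifi205 each share windows with Ifi211 but not with each other.

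Of the PYHIN genes outside the 10, Ifi206 followed the same pattern. These other PYHIN genes were also listed with earlier results known, so p-values given for them are descriptions. Ifi206 measured 29.1, 28.4 and 59.1 CPM in libraries 1 to 3 labelled KO LPS, and 539, 328 and 985 CPM in those labelled KO medium. In WT libraries Ifi206 had 477, 1413 and 909 CPM with LPS and 70.8, 25.3 and 50.1 CPM in medium. It rose with LPS in WT (log2 fold 4.83 ± 0.54, adjusted p = 1.7e-04, edgeR quasi-likelihood test, Benjamini-Hochberg adjusted, higher in 3 of 3 libraries). Labelled KO against WT gave -5.04 ± 0.55 with LPS (adjusted p = 1.2e-04) and 4.50 ± 0.53 in medium (adjusted p = 1.9e-04). The pseudogene Ifi203-ps gave 3.60 ± 0.49 for WT LPS over WT medium (adjusted p = 5.2e-04), -5.15 ± 0.53 for labelled KO over WT with LPS and 3.31 ± 0.48 in medium. Ifi202b was at the edge of detection, with 2, 0 and 0 counts in the libraries labelled KO LPS, 6, 1 and 9 in those labelled KO medium, 7, 12 and 21 in WT LPS and 0, 0 and 0 in WT medium, and did not pass the filter.

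Ifi208 split 1 labelled group. Ifi208 measured 11.4, 7.04 and 23.9 CPM in libraries 1 to 3 labelled KO LPS, and 122, 1.91 and 4.72 CPM in those labelled KO medium. In WT libraries Ifi208 had 217, 282 and 386 CPM with LPS and 30.6, 11.01 and 12.1 CPM in medium. In the libraries labelled KO medium the first held 2205 counts and the other 2 held 27 and 70. Ifi206 and the 10 genes showed no such gap. Expressed against Ifi206, Ifi208 counts were 22.6%, 0.583% and 0.479% in the libraries labelled KO medium, and between 19.98% and 45.6% in the other 9 libraries. Of the 4806 genes with at least 20 CPM in the first library labelled KO medium, Ifi208 was the 1 gene at or below 10% of that level in both others, a screen made after the values were seen. The reverse screens found 0 genes for the second library and 1 (Gm1966) for the third. The submitters' codes for the low pair are D481 and D482, and the labels do not say what the codes mean.

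Calls of Ifi208 depended on single libraries. It rose with LPS in WT (log2 fold 4.66 ± 1.27, adjusted p = 0.0245 by edgeR), a call that was lost without WT LPS library 3 (adjusted p = 0.0708) or WT medium library 1 (0.0574), 2 (0.0620) or 3 (0.0937). With LPS, labelled KO libraries were lower than WT ones (-4.90 ± 1.29, adjusted p = 0.0173 by edgeR), a call lost without the second library labelled KO LPS (adjusted p = 0.0744). In both comparisons the libraries of the groups did not overlap. The fit shares its estimate of the spread over all groups. Without the first library labelled KO medium, which neither comparison holds, the folds were 4.60 ± 0.59 (adjusted p = 8.0e-04) and -4.91 ± 0.60 (adjusted p = 5.8e-04) by edgeR. In medium the value for labelled KO over WT was 2.15 ± 1.14 (adjusted p = 0.186 by edgeR), and without the first library labelled KO medium it was -1.71 ± 0.62 (adjusted p = 0.0865). Labelled KO medium over WT LPS gave -2.51 ± 1.15 (adjusted p = 0.950 by edgeR) with no overlap, and -6.31 ± 0.77 without that library (adjusted p = 0.0428).

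**Figure D5:**
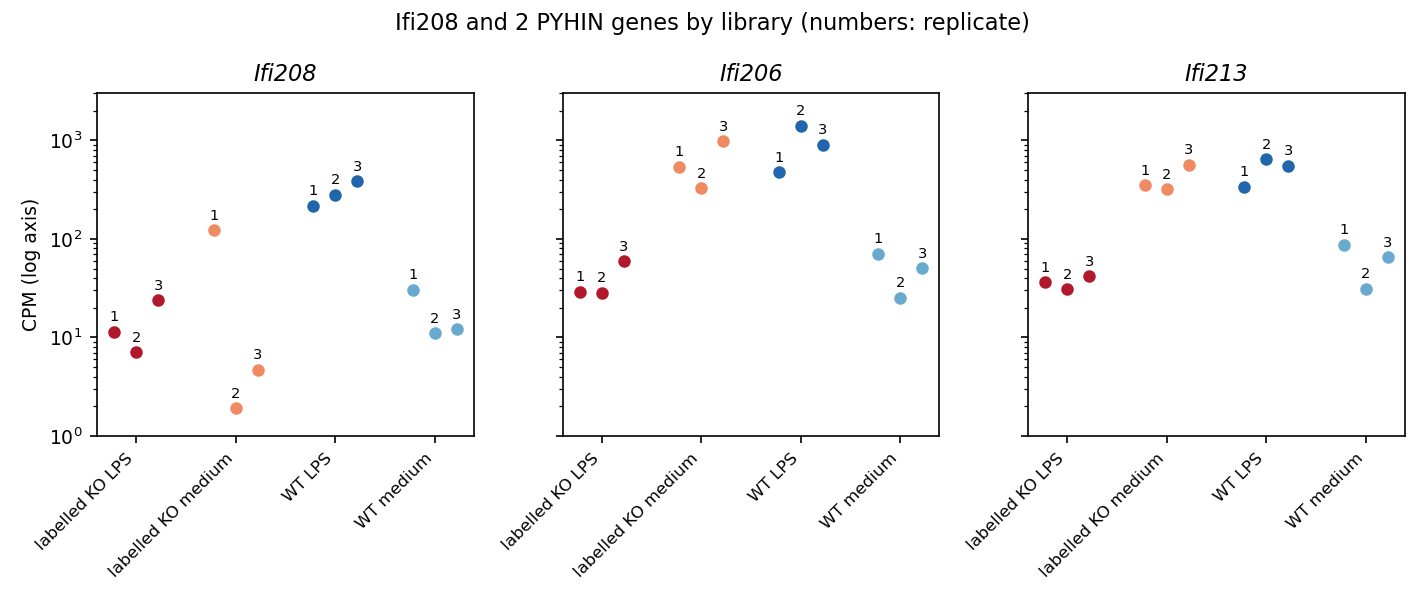
CPM on a shared log axis for Ifi208, Ifi206 and Ifi213 in each library, with replicate numbers above the points. Ifi208 is at 122 CPM in the first library labelled KO medium and at 1.91 and 4.72 CPM in the other 2, a gap that the panels of Ifi206 and Ifi213 do not show.

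Other genes in and around the cluster were mostly silent. Of 47 other genes in the cluster or within 500000 bases of it, 4 passed the filter on low counts, and their counts were small. Gm18445, a pseudogene, had 5, 0 and 0 counts in the libraries labelled KO LPS, 80, 95 and 126 in those labelled KO medium, 101, 46 and 138 in WT LPS and 0, 3 and 0 in WT medium. The olfactory receptor gene Olfr433 had 0, 0 and 2 counts in the libraries labelled KO LPS, 14, 9 and 15 in those labelled KO medium, 24, 33 and 12 in WT LPS and 1, 4 and 1 in WT medium. Both were called higher in WT LPS than in WT medium by edgeR, where 11.9% of genes tested were called higher. They passed the filter through the groups where they are high, so nothing is read from these calls. Fcer1a, which encodes a chain of the high-affinity IgE receptor, had 0, 37 and 132 counts in the libraries labelled KO LPS, 1, 3 and 3 in those labelled KO medium, 0, 17 and 6 in WT LPS and 18, 0 and 6 in WT medium. It was not called in that comparison.

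Inflammasome genes were called in part. In this and the following lists, the 3 genes named first had the smallest p in WT, so their p-values are descriptions. Of 12 genes in a list of the AIM2 inflammasome, its outputs and the sensors Nlrp3, Nlrc4, Nlrp1b and Mefv of other inflammasomes, 8 were called higher and 0 lower in WT LPS than in WT medium (11.9% and 6.46% of all genes tested), with a median log2 fold of 2.25. Nlrp3 and Mefv are among the 8. Casp4, the mouse caspase-11 gene, had 3.40 ± 0.46 (adjusted p = 5.3e-04), Il18, whose product the inflammasome matures, 3.35 ± 0.36 (adjusted p = 1.3e-04), and Gsdmd, the pore-forming gasdermin D, 1.81 ± 0.29 (adjusted p = 0.00139), all by edgeR. Pycard, which encodes the adaptor ASC, had 0.26 ± 0.46 and was not called (adjusted p = 0.750 by edgeR). Within the labelled KO, Pycard was called lower with LPS (-1.39 ± 0.47, adjusted p = 0.0423 by edgeR). In the libraries labelled KO against WT, 0 of the 12 were called higher and 8 lower with LPS (10.4% and 13.7% of all genes), and 8 higher and 1 lower in medium (14% and 12.3%). Within the labelled KO, 1 was called higher and 9 lower with LPS (15.1% and 15.3%).

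Of 10 tested genes of cytosolic DNA sensing and STING, 5 were called higher and 2 lower in WT LPS than in WT medium (11.9% and 6.46% of all genes tested), with a median of 0.63. Zbp1, a sensor of Z-form nucleic acids, had 3.29 ± 0.34 (adjusted p = 1.1e-04), Samhd1, a dNTP hydrolase, 2.83 ± 0.32 (adjusted p = 2.0e-04), and Tbk1, the kinase downstream of STING, 1.46 ± 0.25 (adjusted p = 0.00204) by edgeR. Enpp1, which degrades cGAMP, fell by 1.10 (adjusted p = 0.0119 by edgeR), a call lost without WT medium library 1 (adjusted p = 0.0627). In the libraries labelled KO against WT, 2 were called higher and 5 lower with LPS (10.4% and 13.7% of all genes), and 5 higher and 1 lower in medium (14% and 12.3%).

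Of 18 interferon signalling genes, 15 were called higher and 1 lower in WT LPS than in WT medium (11.9% and 6.46% of all genes tested), with a median of 2.08. The feedback inhibitors Socs1 (5.86 ± 0.59, adjusted p = 9.3e-05) and Usp18 (4.53 ± 0.51, adjusted p = 1.7e-04) and the kinase gene Jak2 (3.70 ± 0.39, adjusted p = 1.3e-04) rose by edgeR. Ifngr1, a chain of the interferon-gamma receptor, was the 1 gene called lower (-1.16 ± 0.37, adjusted p = 0.0486 by edgeR), and kept that call in 4 of 12 fits that left out a library. In the libraries labelled KO against WT, 1 was called higher and 12 lower with LPS (10.4% and 13.7% of all genes), and 15 higher and 1 lower in medium (14% and 12.3%). Within the labelled KO, 1 was called higher and 13 lower with LPS (15.1% and 15.3%). Ifnb1, the interferon-beta gene, had 0, 3 and 4 counts in the libraries labelled KO LPS, 31, 22 and 33 in those labelled KO medium, 36, 64 and 14 in WT LPS and 2, 6 and 1 in WT medium.

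Across the 12 libraries the genes whose log2(CPM + 1) profile was most like the mean of the 10, among 9056 genes with at least 5 CPM on average, were Slfn9 (Pearson r = 0.994), Slfn8 (0.994), Herc6 (0.992), Phf11c (0.989) and Gsap (0.988). Ifi214 was most like Cxcl11 (0.993), Il15ra (0.993) and Ifit2 (0.993). Aim2 was most like Nampt (0.977), Tank (0.971) and Zup1 (0.967), with lower r throughout. The 45 pairs among the 10 had a mean r of 0.926 (0.734 to 0.992), and 0.486 after the group means were removed. The libraries fall into separate clusters, so these values describe likeness of group pattern and carry no p.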

How the data were processed

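RNA of bone marrow-derived macrophages was sequenced in 12 libraries. The deposited table of counts gives whole numbers of reads for each gene, without normalization by the authors. The authors' deposited FPKM table scales them by gene length and library total. The submitters' processing notes name the build mm10. Aligner, counter and strand setting: not given in the sources used here. Both a TruSeq and a KAPA Stranded kit are named in the labels' protocols.

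The fit used edgeR 4.0.16 under R 4.3.3 (quasi-likelihood test, TMM scaling, filterByExpr, 1 mean per group over all 12 libraries), with Benjamini-Hochberg adjustment over 13773 genes and a threshold of 0.05. DESeq2 1.42.0, other scalings and filters, a replicate block and leaving out each library were alternatives. CPM are counts per 1000000 without TMM scaling unless stated, and overlap of groups was judged on them. On simulated data made from these libraries for LPS against medium in WT (13542 genes), 64% of genes changed by 2 on the log2 scale and 88% of those changed by 3 were recovered, and 0.03% of unchanged genes were called. The simulated libraries all had the same makeup apart from 200 well-expressed genes, changed in WT LPS only and equally in both directions. In the real libraries TMM factors ran from 0.702 to 1.46 and far more genes were called. The simulated rates therefore do not test the scaling and hold for that setting only. No 2 libraries agreed within sampling noise (lowest chi-square per gene 22.3). The floor of 3 counts covers counting error only, and p-values reflect no more than the spread among the libraries of a group, which may be technical.

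The genes and lists were chosen with earlier results of these data known, so p-values printed for them describe and do not test. Named besides the 10 are the other PYHIN genes of the cluster, filtered neighbours within 500000 bases, of each pathway list the 3 genes with the smallest p in WT and the smallest-p gene that moved the other way, and the 5 genes of closest profile to the mean and 3 each to Ifi214 and Aim2. Of the neighbours, 1 is not reported here. Nlrc3 checks the labels. Il6, Ifnb1, Pycard and the genes sharing the exact promoter core were named after their values were seen. Promoter motifs were chosen likewise.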

Additional observations from a re-analysis of the deposited data

Results flagged for a closer look

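The LPS effect in the libraries labelled KO differed from that in WT for all 10 genes, which drew attention to them because the difference between the LPS effects was itself fitted (edgeR, all 12 libraries). On the log2 scale, labelled KO minus WT, it was -14.86 for Ifi205, -12.20 for Ifi214, -8.50 for Ifi209, -7.91 for Ifi213, -7.23 for Mndal, -6.89 for Ifi211, -6.73 for Ifi203, -6.14 for Ifi204, -4.04 for Aim2 and -3.08 for Ifi207. Of all genes tested, 20.6% were called in the same direction. Nlrc3 went against the label KO LPS, so the sign of these differences rests on labels that the deletion target does not bear out. The cause was not tested.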

How the results depend on the processing

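Under other scalings, filters, tests, subsets of groups, a replicate block, and each library left out, the direction of all 10 genes was kept in the 5 comparisons in which they were called, and their calls too, except for Ifi207 with library size only (log2 fold 0.78 for WT LPS over WT medium and 0.44 for labelled KO medium over WT medium), which left 9 of 10 called in each. Library size only moved the median log2 fold of the 10 to 2.72 in WT, -3.21 within the labelled KO, -3.17 for labelled KO over WT with LPS, 2.62 in medium and -5.76 for the difference of LPS effects. The median of all genes became -0.64 in WT (-0.06 with TMM), 0.78 within the labelled KO (0.04), 0.57 with LPS (0.06), -0.85 in medium (-0.02) and 1.43 for the difference (0.11). Calls over all genes became 1033 higher and 3200 lower in WT (1636 and 890 with TMM), 5317 and 1177 within the labelled KO (2082 and 2104), 3487 and 1194 with LPS (1435 and 1889), 1070 and 5574 in medium (1932 and 1688), and 6597 and 1538 for the difference (2825 and 2832). Without the filter on low counts, edgeR called 2 genes higher and 1 lower in labelled KO medium against WT LPS, and 95 and 4 in labelled KO LPS against WT medium, where it had called 0. Leaving out 1 library moved calls over all genes by over 1.5 times in WT without WT LPS 3 (1069 and 315) or WT medium 1 (1099 and 394) or 3 (1111 and 434). Within the labelled KO it did so without KO LPS 2 (1171 and 1372) or 3 (1167 and 1463) or KO medium 1 (1125 and 1588). For labelled KO over WT with LPS it did so without WT LPS 3 (565 and 1257), KO LPS 2 (666 and 1144) or 3 (708 and 1274), and in medium without WT medium 1 (1339 and 857) or 3 (1329 and 906) or KO medium 1 (1376 and 893). The count of 0 became 1 and 1 for labelled KO medium over WT LPS without KO medium 1, and 140 and 105 for labelled KO LPS over WT medium without KO LPS 1. Leaving out 1 library gave medians of 3.15 to 3.43 in WT, -4.24 to -3.70 within the labelled KO, -4.10 to -3.55 for labelled KO over WT with LPS (-4.10 without the first library labelled KO LPS), 3.14 to 3.43 in medium, -7.46 to -6.78 for the difference, -0.06 to 0.26 for labelled KO medium over WT LPS and -0.95 to -0.48 for labelled KO LPS over WT medium. The cause of these shifts was not tested. A fit of the compared groups alone was not run for the difference, which uses all 4. At 50 rather than 100 bases, 8 rather than 4 genes shared at least 10% of windows. With TMM-scaled CPM, 3 of the 5 genes most like the mean were the same.

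No pairing by replicate number was evident: deviations of same-numbered libraries correlated from -0.63 to 0.57, over 0.1 in 8 of 18 pairs. With 3 libraries per group such correlations cannot exclude a pairing. For other-numbered libraries r ran from -0.62 to 0.64, over 0.1 in 14 of 36 pairs. The submitters' codes share the number 45 between WT LPS 1 and WT medium 2 and the number 50 between WT LPS 2 and WT medium 3. Deviations of these pairs correlated at 0.59 and 0.46. Pairs with unlike code numbers reached 0.64 (KO LPS 1 with WT medium 2) and 0.63 (KO LPS 2 with WT medium 1). The labels do not say what the codes mean, and no block on them was fitted. With the replicate block the medians were 3.28 in WT, -3.94 within the labelled KO, -3.70 with LPS, 3.38 in medium, -7.06 for the difference, 0.14 for labelled KO medium over WT LPS and -0.70 for labelled KO LPS over WT medium, with calls of the 10 genes as before, and over all genes it called 1444 higher and 695 lower in WT. Depth limits Ifi214 in its low groups (9 to 31 counts) and Ifi202b.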
